A study of Mus musculus with 5 samples.

Results

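The genes examined were 10 fibroblast growth factor (Fgf) ligand genes, namely Fgf3, Fgf4, Fgf7, Fgf8, Fgf9, Fgf10, Fgf15, Fgf17, Fgf18 and Fgf20, out of 21938 protein-coding genes in the annotation. They were chosen by name, as ligands of tooth development and of the Fgf3-Fgf4-Fgf15 gene cluster. Each gene was described by the H3K27me3 peaks that fell in its window, which is the annotated gene body with 5 kb on each side. Chromatin immunoprecipitation followed by sequencing (ChIP-seq) had been carried out on molar mesenchyme, freed of its epithelium, from wildtype C57BL/6 mice at postnatal day 3. There were 2 libraries with an antibody against H3K27me3 (trimethylated lysine 27 of histone H3), 2 input libraries of unprecipitated chromatin and 1 library with IgG, a nonspecific antibody. All came from the same genotype, age and tissue, so the data hold no comparison between conditions. Nothing in the labels tells if each library was made from its own animals or from a pool, and an SD below is the spread between 2 libraries.

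The authors called 3 lists of peaks, regions with more tags (aligned reads) in the H3K27me3 library than in its control. Replicate 1 was called against its input (22757 peaks) and again against IgG (24881 peaks), and replicate 2 was called against its input (33379 peaks). The first 2 lists share one H3K27me3 library and are not independent. The H3K27me3 library had 30369351 tags in replicate 1 and 49947919 in replicate 2, and the shallowest peaks held 4 and 6 overlapping tags, respectively. With so few tags behind a peak, a gene without a peak had none detectable at this depth. Peak lists hold no expression values, so the tissue label could not be checked against marker genes. In a tissue of several cell types, a mark held by some of the cells and a weaker mark held by all of them cannot be told apart.

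Fgf ligands are secreted proteins that signal through receptor tyrosine kinases on neighboring cells. In many organs, ligands of the Fgf7 subfamily (Fgf3, Fgf7 and Fgf10) are made by mesenchyme and act on receptor isoforms of the epithelium, while ligands of the Fgf4, Fgf8 and Fgf9 subfamilies are made largely by epithelium and act on the mesenchyme. In the tooth, Fgf3 and Fgf10 are known from the dental mesenchyme, Fgf8 from the early dental epithelium, and Fgf4, Fgf9 and Fgf20 from the enamel knot, a signaling center of the epithelium. H3K27me3 is placed by Polycomb repressive complex 2, whose methyltransferase is Ezh2 or Ezh1, and it is typically found over CpG-rich regions of developmental genes that are not transcribed.

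Peaks in both replicates were found in the windows of 4 of the 10 ligand genes, Fgf4, Fgf8, Fgf9 and Fgf20. Over all protein-coding genes the share with a peak in both replicates was 15.7%. In replicate 1, 5 ligand genes had a peak (Fgf3, Fgf4, Fgf8, Fgf9 and Fgf20), against 25% of all genes. In replicate 2, 6 had one (Fgf4, Fgf7, Fgf8, Fgf9, Fgf15 and Fgf20), against 35.7% of all genes. Called against IgG, replicate 1 had a peak at 9 of the 10, all but Fgf3, against 25.9% of all genes. With this list in place of the input-called one, Fgf4, Fgf7, Fgf8, Fgf9, Fgf15 and Fgf20 had a peak in both replicates, 6 genes against 16.2% of all genes. The windows differed in length, with a median of 33.5 kb for the ligand genes and 27.4 kb for all genes, and a longer window has more room for a peak. The number of libraries allowed no test across samples, so these shares are descriptions.

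The share of its window that peaks covered ordered the genes, as the mean of both input-called replicates (n = 2). It was 3.78% ± 5.35 (SD) at Fgf15, 3.77% ± 2.22 at Fgf8 and 1.56% ± 0.959 at Fgf4. Fgf15 and Fgf8 had almost the same mean, but Fgf8 was covered in both replicates and Fgf15 only in replicate 2. It was 0.687% ± 0.178 at Fgf9, 0.645% ± 0.912 at Fgf3 and 0.471% ± 0.15 at Fgf20, while Fgf7 had 0.116% ± 0.164. Fgf10, Fgf17 and Fgf18 had 0% in both. Of the steps between neighbors in this order, that from Fgf20 to Fgf7 was larger than the SDs of both genes, and each of the other steps was within the SD of at least 1 of its genes. When replicate 2 was reduced to as many peaks as replicate 1, Fgf20 had 0.183% ± 0.258 and Fgf7 0.116% ± 0.164, and that step too was within the SDs. A peak of a given length makes up more of a shorter window. The windows of Fgf15 (14.4 kb) and Fgf8 (16.1 kb) were among the shortest, and that of Fgf10 (132 kb) was the longest. Pooled over the ligand windows (414 kb), peaks covered 0.495% in replicate 1, 0.882% against IgG and 0.571% in replicate 2, compared with 0.142%, 0.159% and 0.273% of the windows of all genes. The gene with the most covered bases was Fgf8 in replicate 1 (860 bp) and against IgG (1801 bp), and Fgf15 in replicate 2 (1091 bp). The next genes had 624 bp (Fgf4), 445 bp (Fgf9) and 355 bp (Fgf8). The pooled shares thus rest in large part on Fgf8 and Fgf15 and do not describe each ligand gene.

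**Figure D1:**
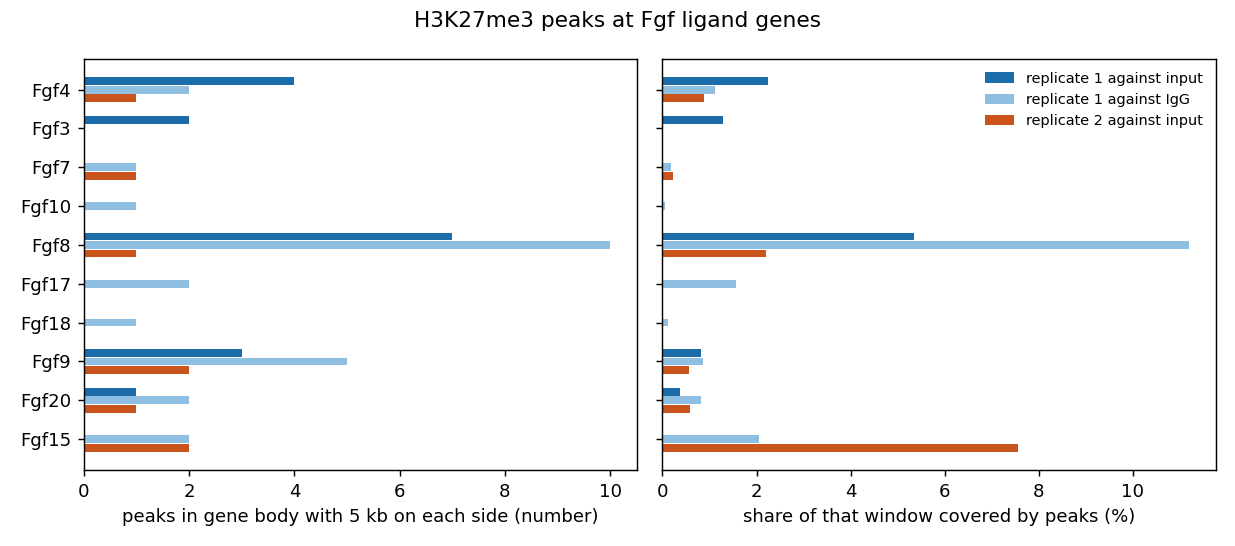
Number of peaks in each ligand gene's window (left) and share of that window covered by peaks (percent, right), both on horizontal axes with the genes listed vertically. Bars give replicate 1 against input, replicate 1 against IgG and replicate 2 against input. Fgf8 is covered in all 3 lists (5.34%, 11.2% and 2.2%), Fgf15 reaches 7.56% in replicate 2 and has no peak in replicate 1 against input, and Fgf10, Fgf17 and Fgf18 have peaks in the IgG-called list alone.

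In the Fgf8 subfamily (Fgf8, Fgf17 and Fgf18), 1 of 3 genes had a peak in both replicates, against 15.7% of all genes. Fgf8 (ENSMUSG00000025219.13, chr19:45736798-45742915, minus strand, GRCm38), which is needed for the early outgrowth of the face and teeth, had 7 peaks in replicate 1, 10 against IgG and 1 in replicate 2. These covered 5.34%, 11.2% and 2.2% of a window of 16.1 kb. Of all protein-coding genes, 99.2%, 99.5% and 97.6% had a lower covered share in the respective list. Only 25%, 25.9% and 35.7% of all genes had any peak in these lists. Here and below, a single peak in a short window is therefore enough for a high rank, as for Fgf8 in replicate 2. The replicate 1 peaks ran across the gene, with 3 upstream of the 5′ end, 3 in introns and 1 that touched a coding exon. Its replicate 2 peak, chr19:45744335-45744689, was 1420 bp upstream of the 5′ end and 179 bp from the nearest replicate 1 peak, and had 6.13 tags and a fold enrichment of 2.38. Fold enrichment is the ratio of the tags in a peak to the background of the control, with 1 added to both by the peak caller. The top peak by fold enrichment of all ligand genes in the IgG-called list, 3.85 with 6.41 tags, lay in the downstream flank of Fgf8. Without the flanks no replicate 2 peak was left at Fgf8. The neighboring gene Npm3, whose body overlaps the window, had 3, 2 and 1 peaks in its own window, which shares bases with that of Fgf8.

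**Figure D2:**
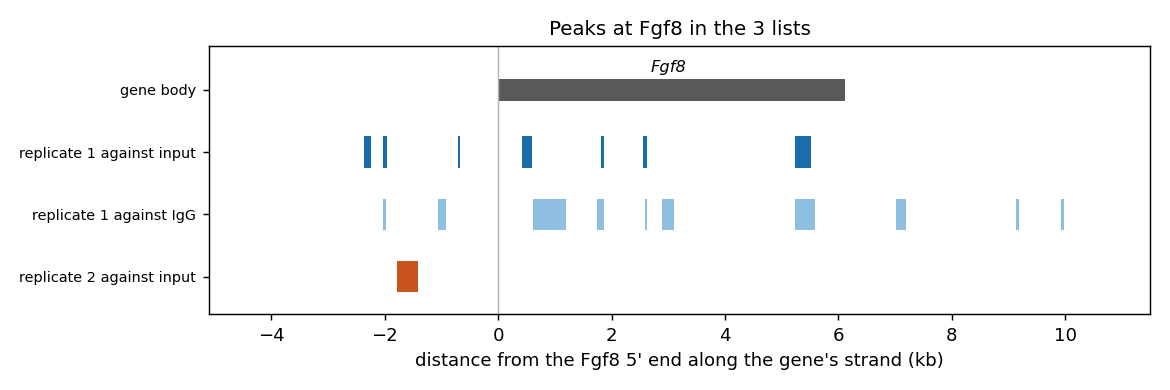
Peaks of the 3 lists along Fgf8, as the distance in kb from its 5′ end (horizontal axis), with the gene above. The 7 replicate 1 peaks and 10 IgG-called peaks lie on both sides of the 5′ end, and the 1 replicate 2 peak lies upstream, between peaks of the other lists.

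The replicate 1 peak nearest to the 5′ end of Fgf8, chr19:45742317-45742499, began 416 bp into the gene and had 6.41 tags and a fold enrichment of 3.09. Of its 183 bases, 176 were in coding exon 2 of 5 of a single annotated transcript. It is shown since it held the most tags of any input-called replicate 1 peak at these genes, 5′ to 3′ on the strand of the gene, with CpG dinucleotides in capitals. It held 11 CpG.
Fgf8, replicate 1: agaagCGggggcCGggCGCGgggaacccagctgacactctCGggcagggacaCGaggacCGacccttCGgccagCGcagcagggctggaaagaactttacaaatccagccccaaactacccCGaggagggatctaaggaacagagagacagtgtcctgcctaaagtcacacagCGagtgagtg

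The other members of the subfamily, Fgf17 and Fgf18, had no peak in either input-called list. Fgf17 (ENSMUSG00000022101.6, chr14:70636203-70642268, minus strand), known from the midbrain-hindbrain region, had 2 IgG-called peaks, in an intron and 1172 bp upstream of the 5′ end, which covered 1.57% of its window. Fgf18 (ENSMUSG00000057967.12, chr11:33117430-33147400, minus strand), a ligand of bone and cartilage growth, had 1 intronic IgG-called peak of 46 bp that covered 0.115%. All 3 genes of the subfamily have a gene of the nucleophosmin family close by (Npm3 at 4.82 kb, Npm2 at 5.03 kb and Npm1 at 4.89 kb).

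In the Fgf9 subfamily, both genes, Fgf9 and Fgf20, had peaks in both replicates (15.7% of all genes did). Fgf9 (ENSMUSG00000021974.15, chr14:58070547-58112720, plus strand) had 3, 5 and 2 peaks, in the order of the lists above, and these covered 0.813%, 0.853% and 0.562% of its window. Fgf20 (ENSMUSG00000031603.14, chr8:40279166-40308331, minus strand) had 1, 2 and 1 peaks, covering 0.365%, 0.817% and 0.577%. The covered shares of these genes varied less between the lists than those of Fgf8 or Fgf15. At Fgf9, a peak at chr14:58073250-58073430 had the same bounds in replicate 1 against input and against IgG. The replicate 2 peaks of Fgf9 lay in introns, and one of them, chr14:58103268-58103341, had the highest fold enrichment (3.3) and the most tags (8.57) of any replicate 2 peak at the ligand genes. The other was 111 bp from an IgG-called peak.

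At Fgf20 the peaks of the 3 lists gathered around the 5′ end that the RefSeq annotation gives, which is 21378 bp downstream of the GENCODE one used for the windows. The replicate 1 peak began 1440 bp downstream of the RefSeq 5′ end, an IgG-called peak lay 261 bp upstream of it, and the replicate 2 peak lay between them. All of them lie in an intron or exon of the GENCODE gene. Their tag numbers were at the lowest value of each list, 4 in replicate 1 and 6 in replicate 2.

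The Fgf9 peak with the same bounds in the input-called and IgG-called lists of replicate 1, chr14:58073250-58073430 (GRCm38), covered 83 bases at the 3′ end of coding exon 1 of 3 and ran into the following intron. It is shown since its bounds did not change with the control, 5′ to 3′ on the plus strand with its 8 CpG in capitals.
Fgf9, replicate 1: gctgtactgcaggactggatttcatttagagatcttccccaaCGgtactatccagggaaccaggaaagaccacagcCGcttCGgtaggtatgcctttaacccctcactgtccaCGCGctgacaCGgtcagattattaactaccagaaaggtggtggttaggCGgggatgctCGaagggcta

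In the Fgf7 subfamily, none of the 3 genes had a peak in both replicates when replicate 1 was called against input, and 15.7% of all genes did. Fgf7 (ENSMUSG00000027208.14, chr2:126034658-126091185, plus strand), also named keratinocyte growth factor, had 0, 1 and 1 peaks, which covered 0.185% against IgG and 0.231% in replicate 2. Both peaks were intronic, lay 11406 bp apart and were also within an intron of Fam227b, which overlaps the gene. Fgf10 (ENSMUSG00000021732.14, chr13:118669791-118792115, plus strand), required for the outgrowth of limbs and lungs, had the longest window (132 kb) and 1 peak, IgG-called and intronic, that covered 0.0438%. Fgf3 (ENSMUSG00000031074.14, chr7:144838083-144844436, plus strand) had 2 replicate 1 peaks that covered 1.29% and none in the other lists. One of them was an intronic peak of 46 bp, and the other lay in the downstream flank, within an intron of Fgf4. In replicate 1, 96.5% of all genes had a lower covered share than Fgf3, but 165 of its 211 covered bases were in the peak within Fgf4. Together the windows of these 3 genes (215 kb) held 2, 2 and 1 peaks in the 3 lists, or 0.929, 0.929 and 0.465 per 100 kb. That is near or below the 1.03, 1.14 and 1.39 per 100 kb of all gene windows. Most of this length belongs to Fgf10 (132 kb) and Fgf7 (66.5 kb), while both replicate 1 peaks were in the 16.4 kb window of Fgf3.

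Fgf3, Fgf4 and Fgf15 lie side by side on chromosome 7, all on the plus strand. As a whole, the cluster with 5 kb on each side (chr7:144833083-144905953, 72.9 kb) held 5 peaks in replicate 1, 4 against IgG and 5 in replicate 2. Their bases made up 0.999%, 0.832% and 2.37% of the window, or 1.68% ± 0.969 (SD, n = 2) for the input-called replicates. In the 100 kb beyond each side there were 3, 2 and 2 peaks, which covered 0.195%, 0.104% and 0.198%. The covered share was thus higher inside the cluster than around it in each list. In replicate 1, 3 peaks lay in gene bodies, those of Fgf3 and Fgf4, while the replicate 2 peaks were spread from Fgf4 to Fgf15, with 3 of the 5 between genes or in flanks. Between Fgf4 and Fgf15, 6.72 kb upstream of Fgf15, a replicate 1 peak (chr7:144889705-144889808) and a replicate 2 peak (chr7:144889376-144889602) were 103 bp apart. The next protein-coding gene on one side, Ano1, had 1, 0 and 3 peaks in its window, and that on the other, LTO1, had none.

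**Figure D3:**
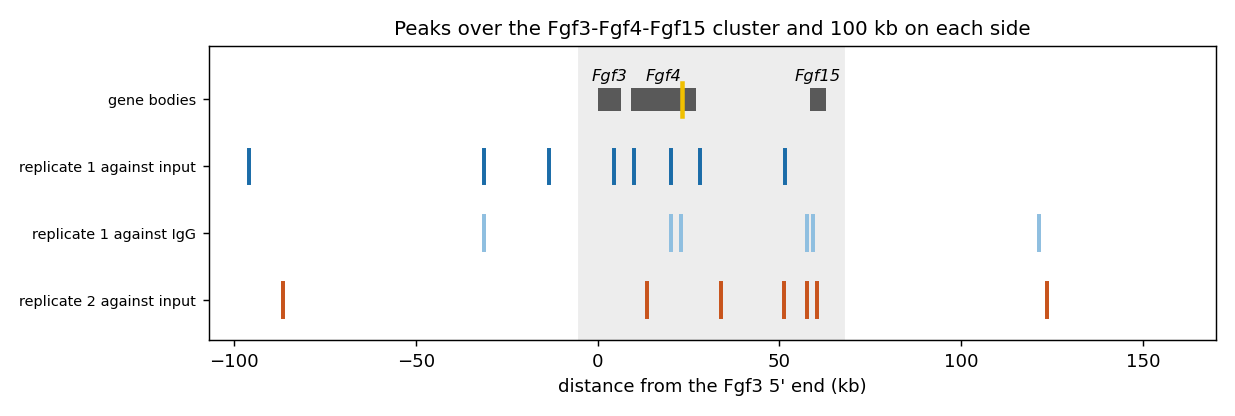
Peaks of the 3 lists over the Fgf3-Fgf4-Fgf15 cluster and 100 kb on each side, as the distance in kb from the Fgf3 5′ end (horizontal axis), where marks give peak centers and not widths, gray shading the cluster window, and the yellow bar the RefSeq 5′ end of Fgf4. Inside the shading there are 5, 4 and 5 peaks, against 3, 2 and 2 outside it.

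Fgf4 (ENSMUSG00000050917.5, chr7:144847367-144865243), a ligand of the enamel knot, had 4, 2 and 1 peaks, which covered 2.24%, 1.11% and 0.882% of its window. Of all genes, 98%, 95.4% and 90.9% had a lower share. Of the replicate 1 peaks, 2 were also counted at Fgf3, because the windows of the neighbors overlap. These were the intronic Fgf3 peak and the peak within an intron of Fgf4. The GENCODE 5′ end of Fgf4 lies 14019 bp upstream of the RefSeq one, and the replicate 2 peak, chr7:144851559-144851804, lay in the intron between them, 9582 bp upstream of the RefSeq 5′ end. With RefSeq gene bodies this peak was outside the window, so that Fgf4 had no peak in both replicates. An IgG-called peak, chr7:144861056-144861179, ended 207 bp upstream of the RefSeq 5′ end, and a peak 3163 bp upstream of it was called against both controls in replicate 1.

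Fgf15 (ENSMUSG00000031073.6, chr7:144896531-144900953), an endocrine ligand that the intestine makes in response to bile acids, had 0, 2 and 2 peaks, which covered 0%, 2.05% and 7.56% of its window. In the IgG-called list and in replicate 2, 97.6% and 99.5% of all genes had a lower share. One replicate 2 peak, chr7:144898058-144898836, was 779 bp long, the longest at these genes, and touched a noncoding exon. The other, chr7:144895650-144895961, was overlapped by the IgG-called peak chr7:144895638-144895887. This was the only place at the ligand genes where peaks of both H3K27me3 libraries overlapped, with 6.6 tags and a fold enrichment of 2.61 in replicate 2 and 4.54 tags and 2.77 in replicate 1 against IgG. Against input, replicate 1 had no peak here.

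The shared bases at Fgf15, chr7:144895650-144895887, are 238 bp that end 644 bp upstream of the 5′ end and also lie in an exon of the antisense gene Gm26793. They held 15 CpG, or 6.3 per 100 bp. They are shown with the Fgf4 peak near the RefSeq 5′ end (chr7:144861056-144861179, 5 CpG) and, as a CpG-poor contrast, the replicate 2 peak of Fgf4 (chr7:144851559-144851804, 1 CpG), all 5′ to 3′ on the plus strand of GRCm38 with CpG in capitals.
Fgf15, shared: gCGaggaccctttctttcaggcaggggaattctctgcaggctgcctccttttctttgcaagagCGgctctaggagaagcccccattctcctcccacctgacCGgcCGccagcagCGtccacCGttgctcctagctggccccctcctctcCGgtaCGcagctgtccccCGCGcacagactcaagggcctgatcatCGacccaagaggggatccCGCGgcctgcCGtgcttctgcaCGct
Fgf4, replicate 1 against IgG: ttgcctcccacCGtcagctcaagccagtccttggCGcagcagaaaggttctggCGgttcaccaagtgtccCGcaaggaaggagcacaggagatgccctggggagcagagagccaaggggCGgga
Fgf4, replicate 2: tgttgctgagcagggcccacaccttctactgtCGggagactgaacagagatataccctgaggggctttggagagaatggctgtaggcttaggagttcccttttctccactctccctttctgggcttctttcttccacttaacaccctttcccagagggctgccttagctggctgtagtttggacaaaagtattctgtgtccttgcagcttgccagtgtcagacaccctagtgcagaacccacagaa

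Within 1 kb of the GENCODE 5′ end, 0 of the 10 ligand genes had a peak in both replicates (a share of at most 30%, that of 3 counts), and 1.04% of all genes did. In replicate 1 these promoter regions had a peak at Fgf4 and Fgf8, 2 genes against 3.87% of all genes. Against IgG they had one at Fgf8 and Fgf15, 2 genes against 4.52%, and in replicate 2 at Fgf15 alone, 1 gene against 4.16%. With the IgG-called list, Fgf15 was the 1 gene with a promoter peak in both replicates, against 1.29% of all genes. Most peaks of the ligand genes lay more than 1 kb from the GENCODE 5′ ends, but the regions within 1 kb are a small part of the windows. The peaks of Fgf4 and Fgf20 near RefSeq 5′ ends are among those counted as farther away. Counted for each gene, 9, 15 and 4 lay in introns, 2, 2 and 1 touched a coding exon, and 4, 4 and 2 were in the upstream flank. These positions were not counted for the whole lists.

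The ligand windows held 15 separate peaks in replicate 1, 26 against IgG and 8 in replicate 2. Their fold enrichments had medians of 2.85, 2.78 and 2.51, compared with 2.63, 2.66 and 2.45 in the whole lists. The highest values were 3.16, 3.85 and 3.3, and 4, 7 and 1 peaks reached a fold enrichment of 3. That is 26.7%, 26.9% and 12.5% of them, against 8.96%, 10.7% and 1.56% of the whole lists. All 4 in replicate 1 were at Fgf8, as were most of the 7 called against IgG, and the 1 in replicate 2 was at Fgf9. The 2 shares of replicate 1 therefore describe mainly Fgf8, and that of replicate 2 a single Fgf9 peak. None of them describes the ligand genes as a group. The highest −log10 p was 2.97, 4.19 and 4.23, and the −log10 q was 0 for every one of these peaks. None would pass a q-value cutoff of 0.05, but in the whole lists only 0, 0 and 4 peaks would. Fold enrichments depend on depth and are not compared between the replicates.

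**Figure D4:**
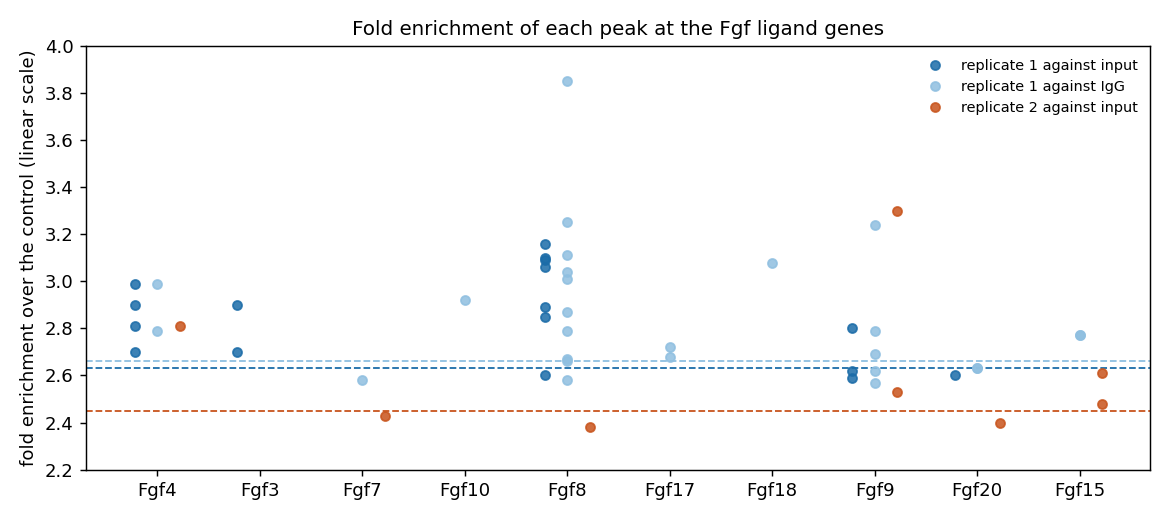
Fold enrichment over the control (vertical axis) of each peak in the windows of the ligand genes, by gene and list, with dashed lines at the median of each whole list (2.63, 2.66 and 2.45). The values run from 2.38 to 3.85, the highest being an IgG-called peak of Fgf8, and peaks of equal value within a gene and list (the 2 IgG-called peaks of Fgf15, and those of Fgf20) fall on one point.

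The positions of single peaks were next compared between the lists. Of the 15 replicate 1 peaks, 0 were overlapped by a replicate 2 peak. A count of 0 in 15 permits a share of at most 20% (that of 3 counts), and the 95% Wilson interval reached 20.4%. In the whole list 2.85% were. A replicate 2 peak was within 1 kb of 4 of the 15 (26.7%), 3 of them at Fgf8 and 1 at Fgf20. The 3 at Fgf8 were all near the same replicate 2 peak. The share within 1 kb was not computed for the whole list, so 26.7% has no background value beside it. Of the 26 IgG-called peaks, 1 (3.85%), that upstream of Fgf15, was overlapped by replicate 2, against 3.32% of the whole list, and it made up 1 of the 8 replicate 2 peaks (12.5%). Between the controls of the same library, an IgG-called peak overlapped 8 of the 15 input-called ones (53.3%, with an interval from 30.1% to 75.2%), and 8 of the 26 IgG-called peaks (30.8%) were met by an input-called one, compared with 51% and 46.6% in the whole lists. Intervals and limits cover counting error only.

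The CpG content of the ligand genes differed widely. As the observed over the expected number of CpG within 1 kb of the GENCODE 5′ end, it was 0.78 at Fgf18, 0.73 at Fgf20, 0.66 at Fgf15 and 0.65 at Fgf8, and 0.1 at Fgf4, with a median of 0.47 over all genes. The other genes had 0.59 (Fgf3), 0.52 (Fgf9), 0.35 (Fgf7), 0.3 (Fgf17) and 0.26 (Fgf10). Fgf18 thus had the highest value and no input-called peak. Fgf7, Fgf17 and Fgf10, below the median, had no input-called peak in replicate 1 either, while Fgf4, with the lowest value, had peaks. A relation between CpG content and peaks was not tested. At the RefSeq 5′ end the ratio was 0.6 for Fgf4, 0.79 for Fgf3 and 0.46 for Fgf20. The peaks of the ligand genes had a median of 0.535 CpG per 100 bp in replicate 1, 1.42 against IgG and 0.71 in replicate 2, compared with 0.73, 0.794 and 0.704 in the whole lists. Peaks without a CpG numbered 7 of 15 (46.7%), 8 of 26 (30.8%) and 1 of 8 (12.5%), against 39.3%, 37.8% and 31.1% of the whole lists. The peaks near the 5′ ends of Fgf8 and Fgf15 printed above were among those richest in CpG.

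Other genes of the pathway were taken from lists of names, and their counts stand against 15.7% of all genes with a peak in both replicates. Of 12 further Fgf ligand genes, 5 (41.7%) had a peak in both replicates. These were Fgf16, which belongs to the Fgf9 subfamily (1.23% ± 0.619 covered, SD, n = 2), Fgf5, which limits hair growth (0.909% ± 0.17), Fgf1, and the intracellular factors Fgf12 and Fgf14, whose windows of 603 kb and 709 kb are long. The ligand genes of the tooth and cluster list, with 40%, were close to this share. Their median covered share was higher, at 0.183%, 0.835% and 0.397% in the 3 lists against 0.0387%, 0% and 0.302% for the further ligand genes. Of 7 receptors and coreceptors, 2 (28.6%) had a peak in both replicates, Fgfr2 and the coreceptor gene Kl (0.694% ± 0.275). The annotated window of Fgfr2 is 2971 kb long and held 111, 135 and 70 peaks, so that a peak there cannot be assigned to the receptor. Of 16 matched genes for intracellular signaling and feedback, which include Spry, Spred, Dusp6 and the Etv factors, 0 were marked in both replicates (a share of at most 18.8%, that of 3 counts).

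For scale, other ligand families were counted in the same way, again against 15.7% of all genes. Of 19 Wnt ligand genes, 8 (42.1%) had a peak in both replicates, led by Wnt1 (6.57% ± 1.97 covered, SD, n = 2), Wnt10b (2.52% ± 2.22) and Wnt3 (2.24% ± 0.509), and 4 had one in the promoter region in both, compared with 0 of the 10 Fgf ligand genes. Of 11 Bmp ligand genes, 4 (36.4%) had a peak in both, led by Gdf2 (0.95% ± 0.722). Of 38 ribosomal protein genes, which every cell transcribes, 0 did (at most 7.89%). Their median window was 13.8 kb, against 33.5 kb for the Fgf ligand genes and 27.4 kb for all genes. A shorter window has less room for a peak. The Hox genes, textbook Polycomb targets, had a median covered share of 11.7% in replicate 1 and 9.88% in replicate 2, compared with 0.183% and 0.397% for the Fgf ligand genes. Fgf8, with 5.34% and 2.2%, and Fgf15, with 0% and 7.56%, were below those Hox medians.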

How the data were processed

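ChIP-seq of H3K27me3 in molar mesenchyme was analyzed from 3 deposited lists of broad peaks, for 2 H3K27me3, 2 input and 1 IgG libraries. Groups followed the sample descriptions. Per the study's methods and the submitters' processing notes, reads were aligned to GRCm38 with BWA and handled with SAMtools and Partek, and the authors called peaks per library with MACS2 2.1.1 at a p-value cutoff of 0.005, keeping 1 tag per position. For each peak the authors deposited the pileup, a signal in scaled overlapping tags, and a fold enrichment, the ratio of pileup to background with a pseudocount of 1. The deposited −log10 p-values and −log10 q-values were used as listed. The controls had 23688420, 24440452 and 51681224 tags in the 3 lists. Replicate 1 had tags of 49 bp and a fragment length modelled by the peak caller of 46 bp, replicate 2 tags of 74 bp and a modelled length of 71 bp. Both modelled lengths lie below the tag length, so they are not the sizes of the DNA fragments. Such short modelled lengths narrow the peaks. Depth, tag length and replicate cannot be told apart.

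Pileups were divided by the scaling factor of the file headers to give tags. Peaks were assigned to GENCODE M21 gene windows (body with 5 kb on each side) and to promoter regions (1 kb around the 5′ end), an overlap being at least 1 base, with Python 3.11.15, numpy 2.4.6, pandas 2.3.3 and scipy 1.17.1. Plots were drawn with matplotlib 3.10.9. Covered share is the percent of window bases under a peak. The counting steps were tested on simulated data. With 2 libraries and no reads, no test was run, and counts of genes with a peak were compared with the share over 21938 protein-coding genes. Sequences were read from the GRCm38 assembly and are shown for some of the peaks. RefSeq 5′ ends are from the RefSeq annotation of the same build. Named were the 10 ligand genes, their neighbors, and of each other list at most 8 genes marked in both replicates. The genes and lists were chosen with earlier results of these data known. Spry3 was not matched (16 of 17 names). The alternatives were other flanks and promoter widths, stricter cutoffs, the IgG control, an equal number of peaks, other overlaps, leaving out a replicate, and RefSeq gene models.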

Additional observations from a re-analysis of the deposited data

How the results depend on the processing

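The count of 4 ligand genes with a peak in both replicates was 3 to 6 with flanks of 0, 2 or 10 kb, with IgG as the control or with RefSeq gene bodies. It fell to 0 at a fold enrichment of 3 or higher and to 0 at a q-value of 0.05 or lower. It was 2 (Fgf4 and Fgf9) with replicate 2 reduced to the number of replicate 1 peaks. Replicate 2 alone gave 6 and replicate 1 alone 5. The count of 0 promoters was 2 (Fgf4 and Fgf8) with 5 kb on each side and 1 (Fgf15) with IgG as the control. Left with one replicate, it was 1 (Fgf15, without replicate 1) or 2 (Fgf4 and Fgf8, without replicate 2). The covered share of the cluster, 1.68%, was 1.48% to 1.95% under the other flanks, control and peak number, 0.999% to 2.37% with a replicate left out, and 0% at a fold enrichment of 3 or higher and at the q-value cutoff. The covered share of single ligand genes moved by more than its SD in 15 of 90 combinations of gene and setting. With replicate 2 reduced, that of Fgf20 was 0.183% in place of 0.471%. The overlap of replicate 1 peaks by replicate 2, 0%, was 26.7% when a peak within 1 kb counted, and 5.26% with flanks of 10 kb. It had no value at the q-value cutoff, which left no replicate 1 peak. The stricter cutoffs leave fewer peaks by construction. At the q-value cutoff the whole replicate 1 list kept 0 peaks and the replicate 2 list 4. No gene of any kind could then have a peak in both replicates. The RefSeq gene models were chosen after seeing the data. No paired analysis was possible because the results are counts and shares of peaks and come from no test. The few tags per peak, 4 or 6 at the least, limit what absence of a peak can show.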

Other observations

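Beyond the window of Fgf18, which had no input-called peak, the 50 kb on each side were examined after the values had been seen. Most peaks there lay past Npm1, toward Tlx3, a homeobox gene. In replicate 1, 6 peaks lay 22.3 kb to 49.2 kb upstream of the Fgf18 5′ end, and 4 of them were nearest to Tlx3. In replicate 2, 3 lay 27.3 kb to 46.3 kb upstream, of which 2 were nearest to Tlx3. A replicate 1 peak at chr11:33193765-33193925 and a replicate 2 peak at chr11:33193698-33193831 overlapped, 46.4 kb and 46.3 kb upstream of Fgf18. These peaks were not assigned to Fgf18.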
